A study of Cucumis melo with 9 samples.

Results

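The AP2/ERF family of ethylene-responsive transcription factors was followed in ripe fruit of the oriental melon 'HT', a climacteric cultivar. Its members were every gene whose description in the deposited table named an ethylene-responsive transcription factor or element, an AP2-like protein or an AP2/ERF or AP2 domain, with the dehydration-responsive factors and CmCBF1 left out. This rule gave 136 of 29980 genes, and it used descriptions only, no measured value. The 9 RNA-seq libraries fell into 3 groups of 3. Recovered fruit (group A) spent 7 d in storage at 4°C followed by 1 d at about 22°C, chilled fruit (group B) spent the whole 8 d at 4°C, and unchilled fruit (group C) came from the plants on day 8 and were never stored. All fruit were grown in a greenhouse, picked ripe and, per the study's methods, pooled as 3 fruits a replicate. Recovered and chilled fruit differ in the last day of storage, whereas each of them differs from unchilled fruit in cold storage and in harvest date together, and those cannot be told apart. The comparisons ask which members differ between chilled and unchilled fruit and which differ after a day of warmth. They also ask which members then still differ from freshly picked fruit.

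AP2/ERF proteins bind DNA through the AP2 domain, and the ERF part of the name comes from GCC-box binding factors found downstream of ethylene. In climacteric fruit ethylene drives ripening, and the ERF branch carries part of that signal from EIN3-type regulators to target genes. The other branches are better known from Arabidopsis for cold and drought (the DREB side), for repression through the EAR motif, for low oxygen (the branch of RAP2-3), for cytokinin (the CRF branch), for surface lipids (WIN1 and SHINE) and for flower and meristem identity (AP2-like). Descriptions in the table come from similarity to such genes, so the roles given here are those of the namesakes and were not measured in melon.

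The libraries held 15508367 to 19011486 counts. TMM, the scaling of edgeR, centres a trimmed mean of the genes' log ratios between libraries. Levels are given as FPKM (fragments per kilobase of the gene and per fixed number of mapped fragments) divided by the library's TMM factor, and are written as scaled FPKM. These factors were 0.764 to 0.809 in chilled libraries, 1.12 to 1.13 in recovered and 1.11 to 1.13 in unchilled libraries. With library totals in place of TMM, the median tested gene changed by -0.56 on the log2 scale in chilled against unchilled fruit (-0.06 with TMM) and by 0.49 in recovered against chilled fruit (-0.02 with TMM), so that all changes are relative to the TMM scaling. In bulk fruit, fewer cells of a type and less RNA per cell cannot be told apart. The 5 ripe fruit markers looked up (CmACO1, CmACS1, a NAC domain gene and a pair of alcohol acyltransferase genes) were all present. Their summed level was 3959.6 to 6055 scaled FPKM in recovered, 1157 to 1352 in chilled and 3731 to 4399 in unchilled libraries. This sum hides opposite changes. By the thresholds given below, CmACS1 was higher in chilled than in unchilled fruit and the other 4 markers were lower. The study reports that the ethylene synthesis genes among them respond to chilling, so the sum is no independent measure of ripeness.

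Of the 136 members, 118 had a count in some library and 18 had none in any. A mean FPKM above 1 over the libraries, the study's own limit for an expressed gene, was reached by 58 members, which were tested together with 15022 genes in all. Of these 58, 41 had a group mean above 1 FPKM in all 3 groups, 7 in 2 groups and 10 in 1 group only, 9 of them in chilled fruit and 1 in unchilled fruit. Those 10 could pass only through the group where they are high and had to differ. No count over the 58 members is therefore read as support for a change of the family. The 9 are ABR1, ERF113-like (MELO3C008331.2), ERF054, ERF054-like, ERF038-like, ERF091, CRF6-like, MELO3C009889.2 and RAP2-11 (MELO3C014722.2). The 1 in unchilled fruit is WIN1-like (MELO3C010341.2). For these 10, fold changes, adjusted p and library separation describe the size of a difference that the filter required. A gene is called changed where its log2 fold change exceeded 1 in size and its adjusted p fell below 0.05 over all tested genes.

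Called members lay on both sides in the cold. In chilled against unchilled fruit 20 of the 58 tested members were called higher, where 22.1% of all tested genes were, and 23 were called lower, where 26.2% were. Together these are 74.1% of the tested members, and 48.3% of all tested genes were called. Within the 41 members above 1 FPKM in every group, 10 were higher and 17 lower (65.9%), where 42.5% of the 12721 genes with such levels were called. With library totals the split over the 58 was 17 higher and 29 lower, where 14.9% and 37.9% of all tested genes were called. The chilled libraries lay all above the unchilled ones for 24 members (37.7% of all tested genes) and all below for 27 (40.6%). As a description of the 58, the median member changed by -0.66 on the log2 scale and the median tested gene by -0.06.

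After the warm day 12 members were higher in recovered than in chilled fruit (25.1% of all tested genes) and 21 were lower (25.3%). Together these are 56.9% of the tested members, and 50.4% of all tested genes were called. Within the 41 members above 1 FPKM throughout, 8 were higher and 10 lower, which makes 43.9% of them and lies near the 45.3% of all genes with such levels. With library totals the 58 gave 16 higher and 17 lower, where 36.4% and 17.2% of all tested genes were called. Between recovered and unchilled fruit 4 members were higher (3.66% of all tested genes) and 15 lower (9.15%). With library totals the counts were again 4 higher and 15 lower, where 3.71% and 9.12% of all tested genes were called. Within the 41 members, 1 was higher (3.08% of all genes with such levels) and 12 were lower (7.19%), 31.7% in all, where 10.3% of such genes were called. Of the 4 higher members the call of 3 was lost with 1 library left out. Their count was 1 without recovered replicate 1, without recovered replicate 3 or without unchilled replicate 3, and that of the 15 lower members was 11 to 18 over the left-out libraries. The comparisons share their libraries, so the counts are not independent of each other.

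**Figure D1:**
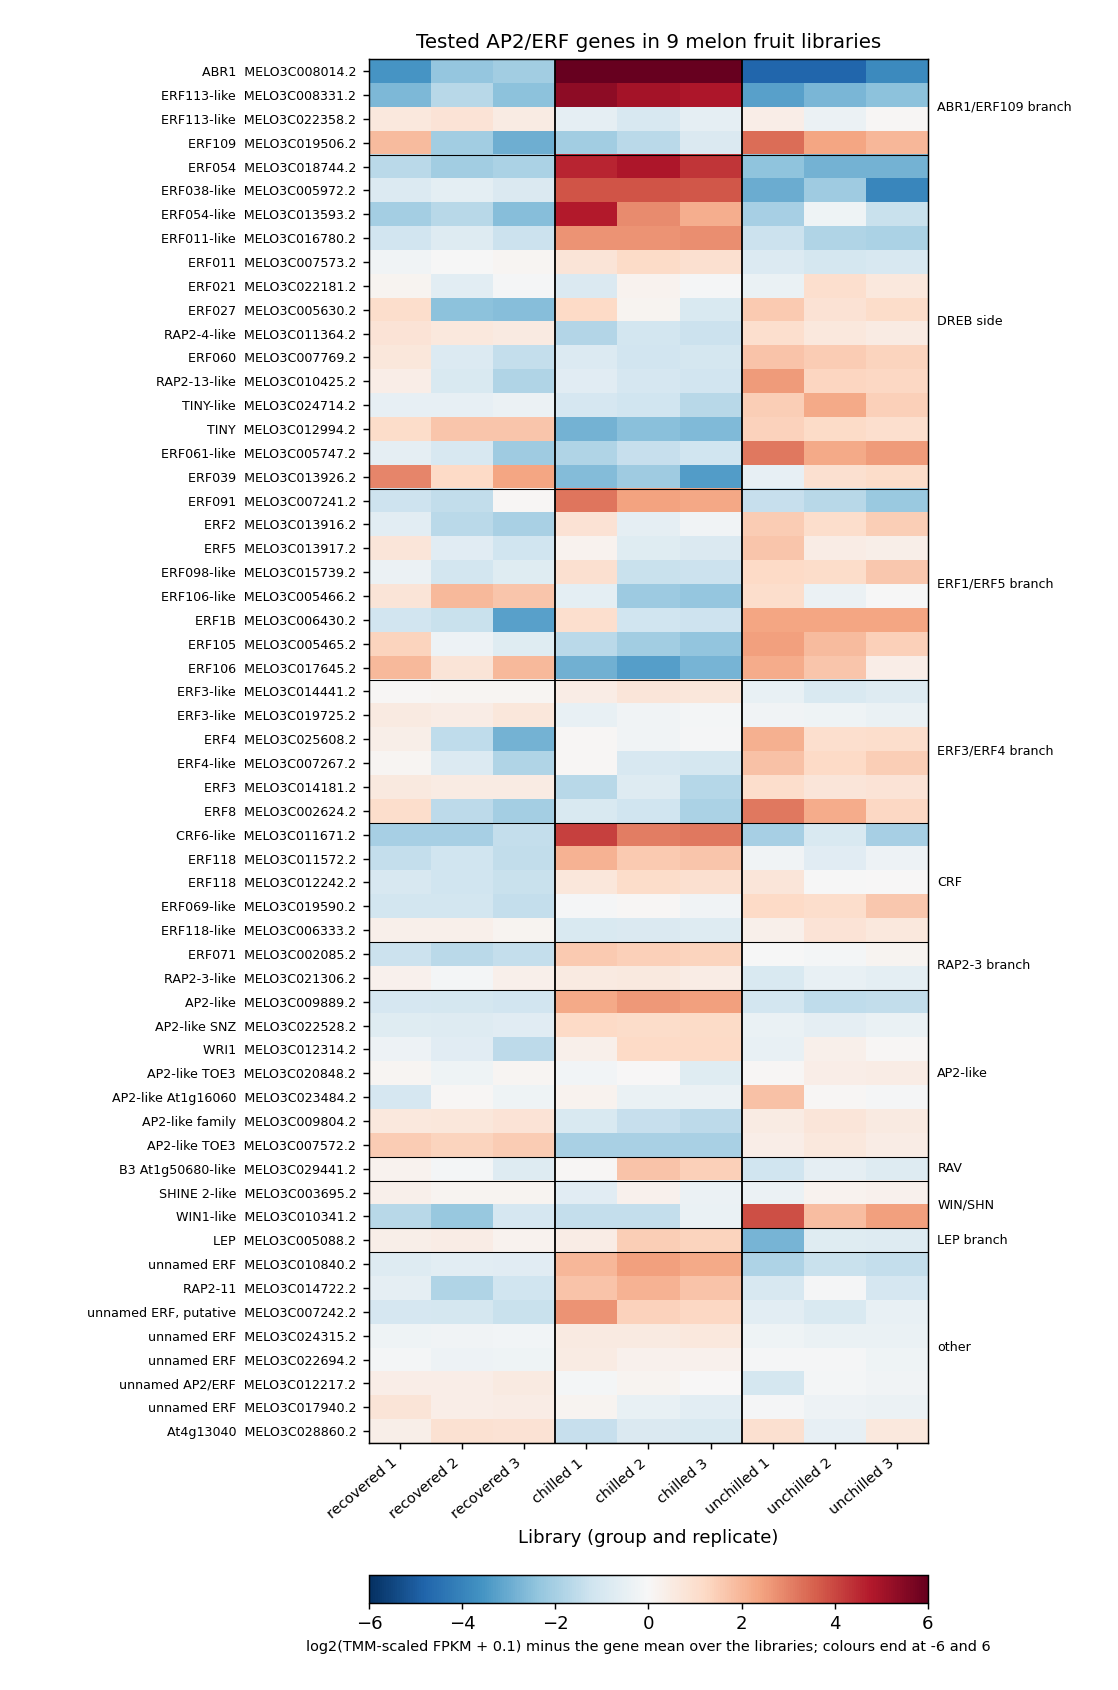
Heat map of the 58 tested members (rows, ordered by branch and by the log2 fold change of chilled against unchilled fruit) in the 9 libraries (columns: recovered, chilled, unchilled). Colour is log2(scaled FPKM + 0.1) minus the gene's own mean over the libraries, red above and blue below that mean. The top row, ABR1, is red in the 3 chilled libraries only, and ERF109 is red in recovered replicate 1 but blue in recovered replicates 2 and 3.

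**Figure D2:**
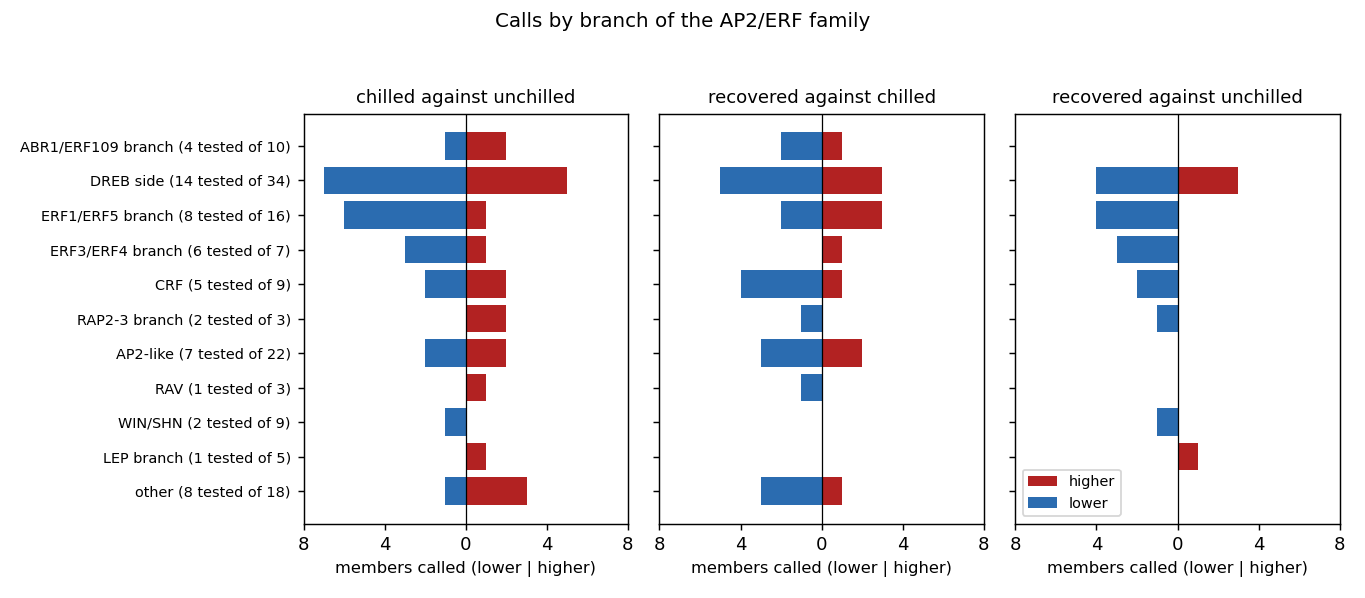
Number of members called lower (blue, left of 0) and higher (red, right of 0) in each branch of the family, with 1 panel for each comparison. The counts include the 10 members that passed the filter through 1 group only. In chilled against unchilled fruit the ERF1/ERF5 branch had 6 members called lower and 1 higher, and in recovered against unchilled fruit its 4 called members were lower.

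The branch of ABR1 and ERF109 (10 members, 4 tested) held the member with the highest rise. ABR1 (MELO3C008014.2, chromosome 8, 6763430 to 6764930) is named after an Arabidopsis repressor of abscisic acid responses that is also known from wounding. It stood at 795, 309 and 194 scaled FPKM in the chilled libraries, against 0, 0 and 0.0907 in the unchilled ones. Every chilled library lay above every unchilled one, and within the chilled group replicate 1 was well above replicates 2 and 3. This rests on 20307 counts in chilled and 2 in unchilled fruit, a ratio of 13683 with a 95% counting interval of 3787 to 112993, which covers counting error only. The fitted log2 fold change was 13.54 ± 0.98 (SE, edgeR adjusted p = 2.95e-06). It depends on those few counts, since it was 16.12 without unchilled replicate 3 and 12.77 without chilled replicate 1.

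In recovered fruit ABR1 was at 0.132, 0.438 and 0.536 scaled FPKM, and the log2 fold change against chilled fruit was -10.15 ± 0.76 (SE, edgeR adjusted p = 3.48e-06), or -9.36 without chilled replicate 1. The recovered libraries lay far below all chilled ones. They also lay above all unchilled ones, with 27 counts against 2 and a ratio of 12.4 (95% counting interval 3.13 to 108), but the fit did not call this difference (log2 fold change 3.39 ± 1.90 SE, edgeR adjusted p = 0.199). It was called without chilled replicate 1, and without unchilled replicate 3 it was 5.97. By mean level ABR1 ranked 2 among the 136 members in chilled fruit, against rank 61 in recovered and rank 99 in unchilled fruit.

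ERF113-like (MELO3C008331.2, chromosome 3, 3829132 to 3831312) is a relative of Arabidopsis RAP2.6L, known from wound healing and shoot regeneration. Its levels were 142, 108 and 98.2 scaled FPKM in chilled libraries, against 0.258, 0.414 and 0.523 in unchilled ones, a log2 fold change of 8.16 ± 0.32 (SE, edgeR adjusted p = 6.82e-08). In recovered libraries it had 0.419, 0.952 and 0.52 scaled FPKM, a log2 fold change of -7.52 ± 0.30 (SE, edgeR adjusted p = 6.94e-08) against chilled fruit. The chilled libraries stood clear of the other 6, and the recovered and unchilled ranges overlapped (log2 fold change 0.64, edgeR adjusted p = 0.227).

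Another gene with the same description, MELO3C022358.2, took the other direction. It stood at 46.1, 53.4 and 41.9 scaled FPKM in recovered fruit, 20.9, 15.3 and 20.3 in chilled fruit and 39.1, 23.8 and 31.6 in unchilled fruit. Recovered fruit were higher than chilled fruit (log2 fold change 1.32 ± 0.20 SE, edgeR adjusted p = 2.21e-04). Its value in chilled against unchilled fruit, -0.74 ± 0.20 (SE, edgeR adjusted p = 0.00781), stayed under the fold threshold with TMM. In that comparison its chilled libraries all lay below the unchilled ones. Its levels were moderate in every library, whereas its namesake was near the detection limit outside the cold.

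ERF109 (MELO3C019506.2), in Arabidopsis a redox and wound responsive activator, was lower in chilled fruit with 1.4, 1.95 and 3.4 scaled FPKM, against 63.5, 32.5 and 24.8 in unchilled fruit, a log2 fold change of -4.13 ± 1.20 (SE, edgeR adjusted p = 0.0124). Its recovered libraries disagreed, with 23, 1.36 and 0.721 scaled FPKM. Replicate 1 alone came near the unchilled range. The log2 fold change of recovered against chilled fruit was 1.86 (edgeR adjusted p = 0.179) with all libraries and -1.15 without recovered replicate 1. Against unchilled fruit it was -2.27 (edgeR adjusted p = 0.126) and -5.28 without that library, where it was called.

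**Figure D3:**
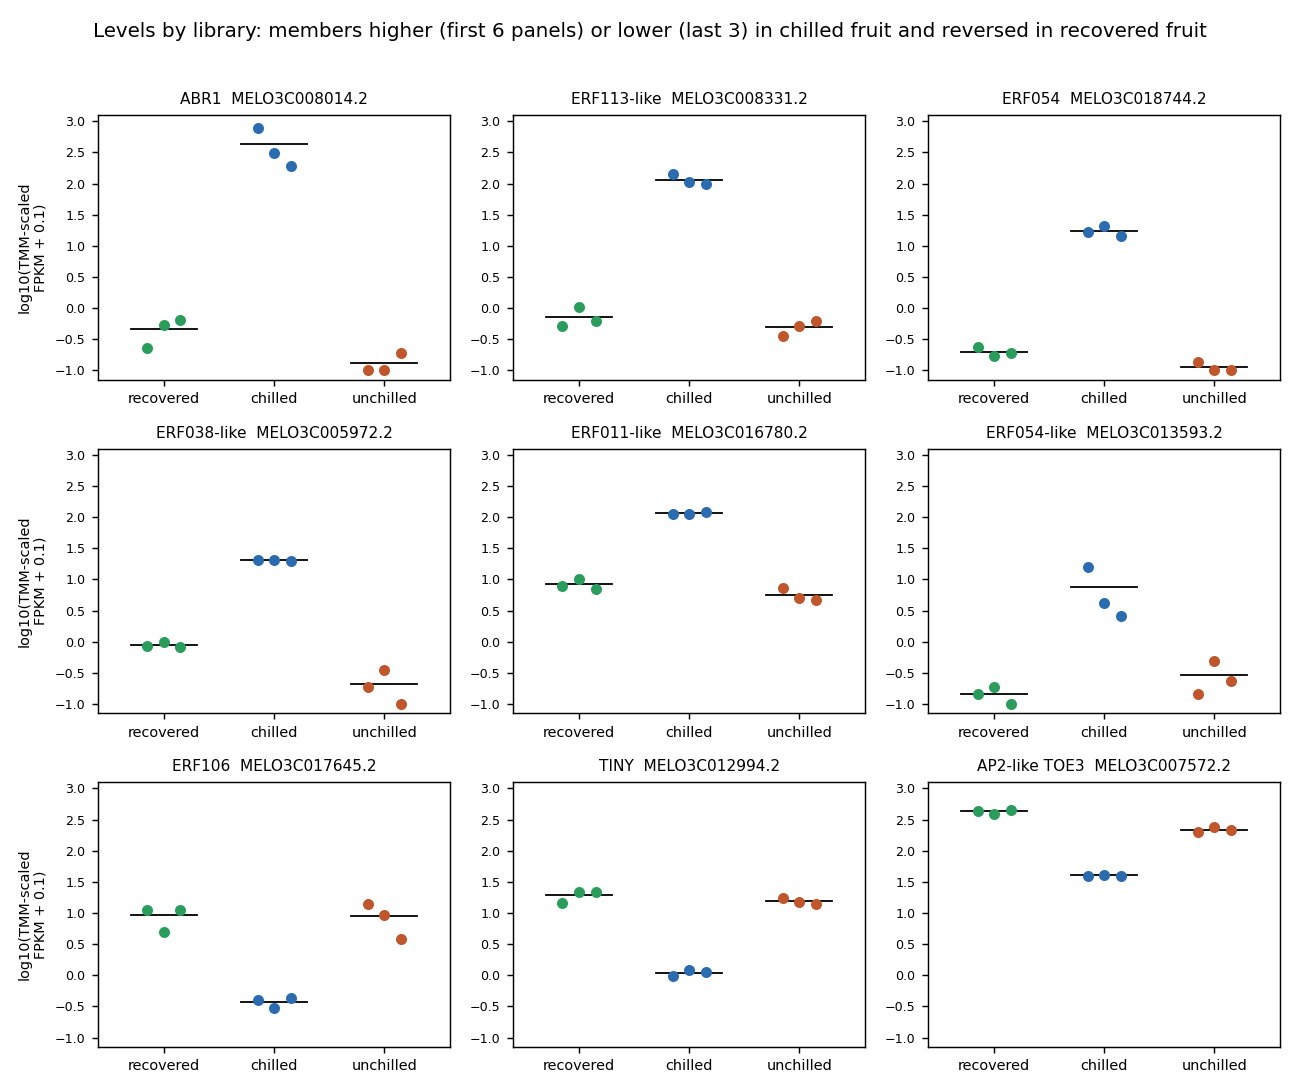
Levels of 9 members in each library, as log10(scaled FPKM + 0.1), for recovered (green), chilled (blue) and unchilled (orange) fruit, with 1 point a library and a black line at the group mean. In the first 6 panels every chilled point lies above the other 6 libraries, and in the last 3 panels every chilled point lies below them. Of the first 6 members, all but ERF011-like passed the filter through chilled fruit only.

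The DREB side (34 members, 14 tested) had 5 members higher and 7 lower in chilled against unchilled fruit (48.3% of all tested genes were called), 3 higher and 5 lower in recovered against chilled fruit (50.4%), and 3 higher and 4 lower in recovered against unchilled fruit (12.8%). The recovered against chilled count is near that share. ERF054, ERF054-like and ERF038-like are in these counts and passed the filter through chilled fruit only. This side of the family binds dehydration-responsive elements in Arabidopsis. ERF054 (MELO3C018744.2) had 16.9, 20.4 and 14.2 scaled FPKM in chilled libraries, against 0.0373, 0 and 0 in unchilled ones. These levels rest on 1058 counts in chilled and 1 in unchilled fruit, a ratio of 1426 (95% counting interval 255 to 56368). On the log2 scale the fold change was 10.01 ± 0.44 (SE, edgeR adjusted p = 8.17e-08), and 11.81 without unchilled replicate 1. Recovered libraries had 0.139, 0.0688 and 0.0902 scaled FPKM, a log2 fold change of -7.37 ± 0.34 (SE, edgeR adjusted p = 9.88e-08) against chilled fruit. The small remaining difference from unchilled fruit (2.64 ± 0.83 SE, edgeR adjusted p = 0.0345) was not called without recovered replicate 1, recovered replicate 3, unchilled replicate 2 or unchilled replicate 3 (adjusted p 0.068 to 0.114), and was 4.44 without unchilled replicate 1.

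ERF054-like (MELO3C013593.2) moved the same way with a wider spread, at 15.8, 4.13 and 2.51 scaled FPKM in chilled fruit, against 0.0471, 0.389 and 0.135 in unchilled fruit. Chilled replicate 1 was the highest of all 9 libraries. In the fit this was a log2 fold change of 5.22 ± 0.91 (SE, edgeR adjusted p = 6.57e-04), 4.05 without chilled replicate 1 and 6.25 without unchilled replicate 2. In recovered fruit it had 0.0437, 0.0869 and 0 scaled FPKM, a log2 fold change of -7.29 ± 1.10 (SE, edgeR adjusted p = 2.52e-04) against chilled fruit, -6.12 without chilled replicate 1 and -8.14 without recovered replicate 2.

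ERF038-like (MELO3C005972.2) had chilled libraries close to each other, with 20.3, 20.6 and 19.7 scaled FPKM in chilled fruit, against 0.0889, 0.245 and 0 in unchilled fruit (log2 fold change 7.34 ± 0.44 SE, edgeR adjusted p = 4.44e-07, 8.52 without unchilled replicate 2). In recovered fruit it had 0.742, 0.902 and 0.716 scaled FPKM, -4.67 ± 0.34 (SE, edgeR adjusted p = 1.33e-06) on the log2 scale against chilled fruit. The recovered libraries lay between the other groups without overlap. Against unchilled fruit the log2 fold change was 2.68 ± 0.55 (SE, edgeR adjusted p = 0.0055), and 3.86 without unchilled replicate 2. Among the 4 members called higher in recovered than in unchilled fruit, it was the only member that kept its call with each library left out.

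ERF011-like (MELO3C016780.2) rose to 113, 114 and 119 scaled FPKM in chilled fruit, against 7.13, 4.87 and 4.5 in unchilled fruit, a log2 fold change of 4.39 ± 0.20 (SE, edgeR adjusted p = 1.18e-07). It was back at 7.84, 10.2 and 6.98 scaled FPKM in recovered fruit, -3.79 ± 0.20 (SE, edgeR adjusted p = 1.95e-07) against chilled fruit. The chilled libraries differed little from each other and stood above all others. ERF011 (MELO3C007573.2) had 12.6, 14.2 and 15.5 scaled FPKM in recovered, 24.6, 32.3 and 28.3 in chilled and 8.25, 6.94 and 7.47 in unchilled fruit. It was called higher in chilled against unchilled fruit (1.91 ± 0.14 SE, edgeR adjusted p = 1.87e-06) and lower in recovered against chilled fruit (-1.01 ± 0.14 SE, edgeR adjusted p = 1.02e-04), where the call sat on the fold threshold and was lost without recovered replicate 1 (-0.93), without chilled replicate 2 (-0.90) and with library totals (-0.50).

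Other DREB-side members fell in the cold, and some came back with warmth. TINY (MELO3C012994.2), a DREB-type factor linked to growth and stress in Arabidopsis, fell to 0.876, 1.1 and 1.01 scaled FPKM in chilled fruit, against 17.5, 15.1 and 13.8 in unchilled fruit (log2 fold change -3.94 ± 0.25 SE, edgeR adjusted p = 6.78e-07). In recovered fruit it had 14.5, 21.9 and 21.6 scaled FPKM, 4.26 ± 0.25 (SE, edgeR adjusted p = 3.71e-07) against chilled fruit. The recovered and unchilled ranges overlapped. RAP2-4-like (MELO3C011364.2), after a light and drought responsive Arabidopsis factor, had 179, 155 and 147 scaled FPKM in recovered, 29.96, 47.2 and 41.3 in chilled and 203, 157 and 144 in unchilled fruit. On the log2 scale it changed by -2.09 ± 0.19 (SE, edgeR adjusted p = 6.89e-06) in chilled against unchilled and 2.02 ± 0.19 (SE, edgeR adjusted p = 7.69e-06) in recovered against chilled fruit, and the recovered and unchilled libraries overlapped.

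ERF039 (MELO3C013926.2) went further than its unchilled level. It had 7.58, 2.23 and 5.1 scaled FPKM in recovered, 0.0677, 0.132 and 0 in chilled and 0.628, 1.86 and 2.08 in unchilled fruit, and no groups overlapped. Chilled fruit held only 3 counts, against 100 in unchilled fruit, so that unchilled fruit were 24.7 times higher (95% counting interval 8.22 to 122). The log2 fold changes were -4.48 ± 0.93 (SE, edgeR adjusted p = 0.0017) for chilled against unchilled and 6.18 ± 0.87 (SE, edgeR adjusted p = 1.28e-04) for recovered against chilled fruit. Both moved by more than 1.5-fold without chilled replicate 2 (-5.40 and 7.10) or chilled replicate 3 (-3.85 and 5.55). Against unchilled fruit the recovered libraries gave 1.70 ± 0.55 (SE, edgeR adjusted p = 0.0379), a call that was lost without recovered replicate 1, recovered replicate 3 or any unchilled library (adjusted p 0.0591 to 0.129).

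ERF061-like (MELO3C005747.2, chromosome 9, 23908900 to 23910228) was lower in both stored groups than in unchilled fruit. Its levels were 2.11, 1.53 and 0.633 scaled FPKM in recovered, 0.796, 1.14 and 1.29 in chilled and 28.4, 15.1 and 18.3 in unchilled fruit. Both stored groups lay below every unchilled library and overlapped each other. The log2 fold change was -4.25 ± 0.43 (SE, edgeR adjusted p = 1.71e-05) in chilled and -3.86 ± 0.41 (SE, edgeR adjusted p = 2.71e-04) in recovered against unchilled fruit, and 0.38 (edgeR adjusted p = 0.463) between recovered and chilled fruit.

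TINY-like (MELO3C024714.2) was also lower in both stored groups, at 2.56, 2.6 and 2.87 scaled FPKM in recovered, 1.79, 1.56 and 1.07 in chilled and 10.4, 17.8 and 9.89 in unchilled fruit, with log2 fold changes of -3.11 ± 0.31 (SE, edgeR adjusted p = 1.15e-05) and, after the warm day, -2.24 ± 0.28 (SE, edgeR adjusted p = 5.07e-04) against unchilled fruit. The recovered libraries lay above all chilled ones, a difference of 0.87 ± 0.31 (SE, edgeR adjusted p = 0.0284) under the fold threshold, which was called without chilled replicate 1 (1.04). RAP2-13-like (MELO3C010425.2) had 3.93, 1.54 and 0.786 in recovered, 1.8, 1.41 and 1.29 in chilled and 17.8, 7.29 and 7.21 scaled FPKM in unchilled fruit. It was lower in chilled (-2.84 ± 0.61 SE, edgeR adjusted p = 0.00246) and in recovered fruit (-2.37 ± 0.58 SE, edgeR adjusted p = 0.0136; -3.21 without recovered replicate 1) than in unchilled fruit. ERF060 (MELO3C007769.2) had 86.9, 31.6 and 20.5 scaled FPKM in recovered, 31, 25.1 and 26.4 in chilled and 181, 161 and 137 in unchilled fruit, with recovered replicate 1 far above the other recovered libraries. Its log2 fold change was -2.53 ± 0.47 (SE, edgeR adjusted p = 0.00115) in chilled and -1.78 ± 0.46 (SE, edgeR adjusted p = 0.0168) in recovered against unchilled fruit. Without recovered replicate 1 the recovered value was -2.62, and the call was lost without recovered replicate 2 (adjusted p = 0.0573). Between recovered and chilled fruit it was 0.75, called without recovered replicate 3 (1.11), and -0.08 without recovered replicate 1.

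The branch of ERF1 and ERF5 (16 members, 8 tested) holds activators that bind the GCC box and act downstream of ethylene and jasmonate in Arabidopsis. In chilled against unchilled fruit 6 were lower (26.2% of all tested genes) and 1 higher (22.1%). The 1 higher, ERF091, passed the filter through chilled fruit only. In recovered against chilled fruit 2 were lower (25.3%) and 3 higher (25.1%), and in recovered against unchilled fruit 4 were called, all lower (9.15%). ERF1B (MELO3C006430.2) is named after Arabidopsis ERF1, a direct target of EIN3. It had 5.12, 4.51 and 1.1 scaled FPKM in recovered and 23.4, 4.98 and 4.83 in chilled fruit, against 59.99, 59.7 and 60.3 in unchilled fruit, and both stored groups lay below every unchilled library. Chilled replicate 1 was the highest of the stored libraries. The log2 fold change of recovered against unchilled fruit was -4.08 ± 0.72 (SE, edgeR adjusted p = 0.00326), and that of chilled against unchilled fruit -2.45 ± 0.66 (SE, edgeR adjusted p = 0.00852), or -3.61 without chilled replicate 1. Between recovered and chilled fruit it was -1.63 ± 0.70 (SE, edgeR adjusted p = 0.0602), called without chilled replicate 2 or 3, and -0.47 without chilled replicate 1.

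ERF106 (MELO3C017645.2, chromosome 7, 25890249 to 25891051) was lower in chilled fruit than in the other groups. It had 11.3, 4.93 and 11.1 scaled FPKM in recovered, 0.304, 0.198 and 0.327 in chilled and 13.7, 9.28 and 3.73 in unchilled fruit. The chilled libraries were below 1 scaled FPKM and far from the others, while recovered and unchilled libraries overlapped over most of their range. In the fit it changed by -4.95 ± 0.67 (SE, edgeR adjusted p = 1.12e-04) on the log2 scale in chilled against unchilled fruit and 4.99 ± 0.67 (SE, edgeR adjusted p = 9.95e-05) in recovered against chilled fruit. For recovered against unchilled fruit it was 0.04 ± 0.45 (SE, edgeR adjusted p = 0.958).

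ERF105 (MELO3C005465.2), known in Arabidopsis as a cold-regulated gene that adds to freezing tolerance, fell to 13.6, 9.61 and 7.89 scaled FPKM in chilled fruit, against 229, 156 and 112 in unchilled fruit (log2 fold change -4.0 ± 0.59 SE, edgeR adjusted p = 2.65e-04). Recovered libraries had 104, 33.8 and 25 scaled FPKM, above all chilled and below all unchilled ones, with replicate 1 the highest. Against chilled fruit this was 2.39 ± 0.56 (SE, edgeR adjusted p = 0.00396) on the log2 scale, or 1.51 without recovered replicate 1. Against unchilled fruit it was -1.61 ± 0.52 (SE, edgeR adjusted p = 0.0409), or -2.49 without recovered replicate 1, and the call was lost without recovered replicate 2 or 3, chilled replicate 2 or 3, or unchilled replicate 1 or 2 (adjusted p 0.0528 to 0.124). ERF106-like (MELO3C005466.2) lies beside it and had 13.6, 30.2 and 25.5 in recovered, 5.31, 1.69 and 1.48 in chilled and 16.5, 6.21 and 7.71 scaled FPKM in unchilled fruit. It was higher in recovered against chilled fruit (3.05 ± 0.59 SE, edgeR adjusted p = 0.00127, 3.86 without chilled replicate 1). Its fall in chilled against unchilled fruit (-1.86 ± 0.59 SE, edgeR adjusted p = 0.0176, -2.67 without chilled replicate 1) was not called without chilled replicate 2, chilled replicate 3 or unchilled replicate 1 (adjusted p 0.0579 to 0.0624). Between recovered and unchilled fruit its value of 1.19 was called, among the fits with 1 library left out, only without unchilled replicate 1 (1.71).

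ERF2 (MELO3C013916.2) was highest in unchilled and lowest in recovered fruit, and no groups overlapped. It had 4.83, 2.35 and 1.88 scaled FPKM in recovered, 13.7, 5.09 and 6.56 in chilled and 21.6, 15.9 and 21.4 in unchilled fruit. It was called lower in recovered against unchilled fruit (-2.70 ± 0.44 SE, edgeR adjusted p = 0.00209). The smaller steps depended on single libraries. The value of chilled against unchilled fruit, -1.22 ± 0.42 (SE, edgeR adjusted p = 0.0241), was not called without chilled replicate 2, chilled replicate 3, unchilled replicate 1 or unchilled replicate 3. That of recovered against chilled fruit, -1.48 ± 0.44 (SE, edgeR adjusted p = 0.0128), was -0.96 and under the fold threshold without chilled replicate 1. Its neighbour ERF5 (MELO3C013917.2) had 13.5, 4.97 and 3.51 in recovered, 9.37, 4.89 and 4.34 in chilled and 26.1, 11.1 and 10.4 scaled FPKM in unchilled fruit and was not called in any comparison. The call in chilled against unchilled fruit (-1.36, adjusted p = 0.0615) was gained without recovered replicate 1, recovered replicate 3 or chilled replicate 1, where it was -1.78, and in recovered against unchilled fruit without recovered replicate 1 (-1.91).

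ERF098-like (MELO3C015739.2) had 2.89, 1.68 and 2.2 scaled FPKM in recovered, 7.46, 1.42 and 1.47 in chilled and 8.7, 8.1 and 11.6 in unchilled fruit. Chilled replicate 1 stood near the unchilled range, and without it the log2 fold change of chilled against unchilled fruit was -2.70, against -1.48 ± 0.57 (SE, edgeR adjusted p = 0.0386) with all libraries. That call was lost without recovered replicate 3, chilled replicate 2 or 3, or any unchilled library (adjusted p 0.0536 to 0.121), and the call in recovered against unchilled fruit (-2.07 ± 0.57 SE, edgeR adjusted p = 0.0205) without recovered replicate 2 or 3 or unchilled replicate 3 (adjusted p 0.0637 to 0.0681). The only tested member of this branch called higher in the cold was ERF091 (MELO3C007241.2), at 8.57, 4.88 and 4.7 scaled FPKM in chilled fruit, against 0.266, 0.195 and 0.102 in unchilled fruit (log2 fold change 4.96 ± 0.57 SE, edgeR adjusted p = 3.38e-05). In recovered fruit it had 0.296, 0.245 and 0.9 scaled FPKM, -3.60 ± 0.50 (SE, edgeR adjusted p = 1.14e-04) on the log2 scale against chilled fruit, or -4.44 without recovered replicate 3.

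The branch of ERF3 and ERF4 (7 members, 6 tested) holds repressors with the EAR motif in Arabidopsis and tobacco. In chilled against unchilled fruit 3 were lower (26.2% of all tested genes) and 1 higher (22.1%). In recovered against chilled fruit 1 was called, which was higher (25.1%), and in recovered against unchilled fruit 3 were called, all lower (9.15%). ERF3 (MELO3C014181.2, chromosome 6, 38074941 to 38076023) was lower in chilled fruit than in the other groups. It had 5.37, 5.09 and 5.14 scaled FPKM in recovered, 1.05, 2.05 and 1.03 in chilled and 7.5, 6 and 6.44 in unchilled fruit. Its log2 fold change was -2.27 ± 0.27 (SE, edgeR adjusted p = 4.42e-05) in chilled against unchilled and 1.92 ± 0.27 (SE, edgeR adjusted p = 1.32e-04) in recovered against chilled fruit. The recovered libraries ended just below the unchilled ones, a difference of -0.35 that was not called (edgeR adjusted p = 0.283).

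ERF4-like (MELO3C007267.2), the branch's highest member by mean level, was lower in both stored groups than in unchilled fruit. It had 85.2, 44.4 and 22.8 scaled FPKM in recovered, 82.6, 40.6 and 37.4 in chilled and 264, 183 and 222 in unchilled fruit, and every stored library lay below every unchilled one. The log2 fold change was -2.06 ± 0.48 (SE, edgeR adjusted p = 0.0041) in chilled and -2.13 ± 0.48 (SE, edgeR adjusted p = 0.00984) in recovered against unchilled fruit, and that of recovered fruit was -2.73 without recovered replicate 1. ERF8 (MELO3C002624.2) had 33.1, 5.29 and 3.8 in recovered, 8.32, 6.86 and 4.18 in chilled and 141, 73.6 and 37.2 scaled FPKM in unchilled fruit. It was lower in chilled fruit (-3.71 ± 0.89 SE, edgeR adjusted p = 0.00475, -3.13 without unchilled replicate 1). Its recovered replicate 1 stood well above replicates 2 and 3, and the call against unchilled fruit (-2.58 ± 0.83 SE, edgeR adjusted p = 0.0399) was lost without recovered replicate 2 or 3, any chilled library, or unchilled replicate 1 or 2 (adjusted p 0.0511 to 0.125). Without recovered replicate 1 that value was -4.21, and without unchilled replicate 1 it was -1.99.

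ERF4 (MELO3C025608.2) had 26.1, 7.21 and 2.86 scaled FPKM in recovered, 21.9, 17.7 and 20.01 in chilled and 90.8, 41.2 and 43.2 in unchilled fruit. The difference of chilled against unchilled fruit, -1.56 ± 0.67 (SE, edgeR adjusted p = 0.0627), was not called, although no libraries overlapped, and it was called without recovered replicate 1 or recovered replicate 3. Against chilled fruit the recovered value of -0.72 was called, among the fits with 1 library left out, only without recovered replicate 1 (-1.99). Recovered fruit were lower than unchilled fruit (-2.28 ± 0.69 SE, edgeR adjusted p = 0.0319), -3.54 without recovered replicate 1, and the call was lost without recovered replicate 2, unchilled replicate 1 or unchilled replicate 3 (adjusted p 0.0506 to 0.1). The 2 members described as ERF3-like went another way. MELO3C014441.2 had 31.8, 38.5 and 36.9 scaled FPKM in chilled fruit, against 16.9, 12.4 and 13.8 in unchilled fruit, and was called higher (1.32 ± 0.13 SE, edgeR adjusted p = 1.18e-05), though with library totals its value was 0.82. MELO3C019725.2 had 74.7, 69.6 and 83.1 scaled FPKM in recovered, 37.2, 45 and 47.6 in chilled and 43.8, 42.6 and 39.4 in unchilled fruit and was not called in any comparison with TMM. Its recovered libraries lay above all others. The log2 fold changes were 0.81 ± 0.11 (SE, edgeR adjusted p = 1.03e-04) against chilled and 0.85 ± 0.11 (SE, edgeR adjusted p = 5.84e-04) against unchilled fruit, both under the fold threshold.

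**Figure D4:**
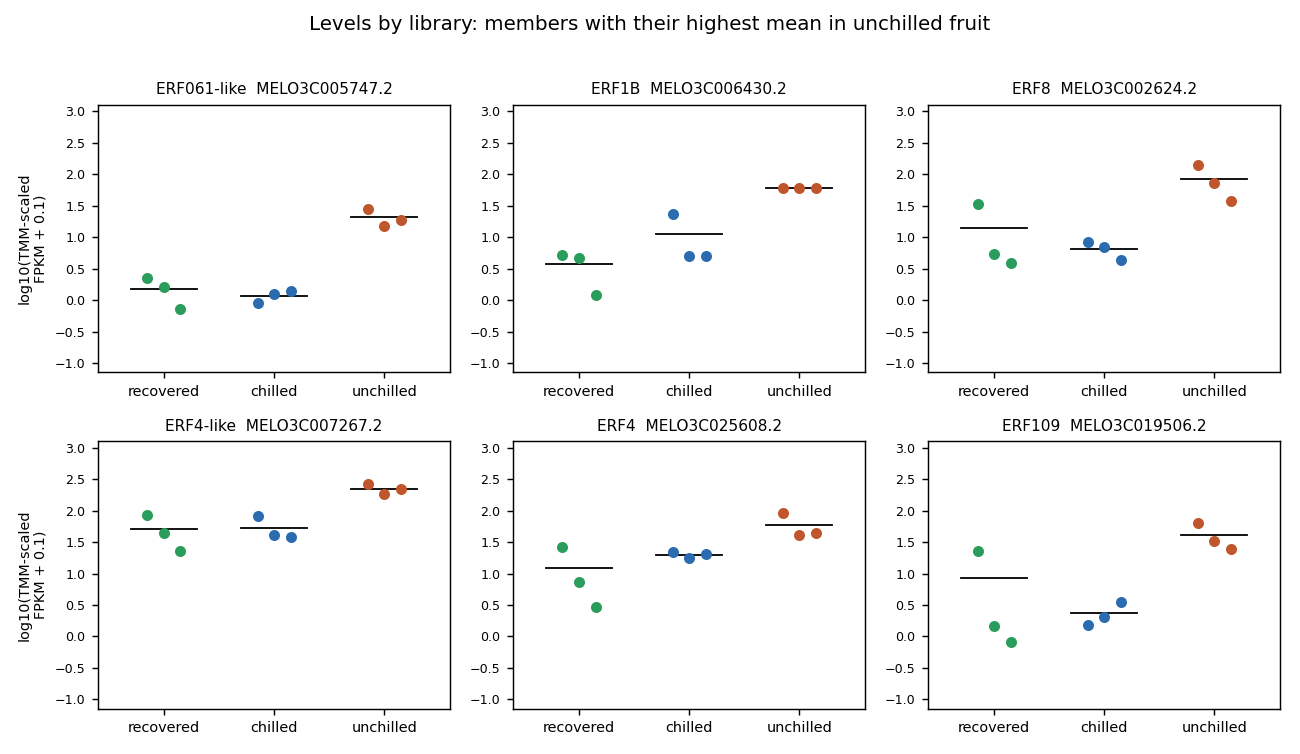
Levels of 6 members in each library, as log10(scaled FPKM + 0.1), for recovered (green), chilled (blue) and unchilled (orange) fruit, with 1 point a library and a black line at the group mean. ERF1B lies between 59.7 and 60.3 scaled FPKM in the 3 unchilled libraries and at 23.4 or less in every stored library, and the leftmost recovered point (replicate 1) is the highest recovered point in each panel.

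The CRF branch (9 members, 5 tested), the cytokinin response factors of Arabidopsis and their relatives, had 2 members higher and 2 lower in chilled against unchilled fruit (48.3% of all tested genes were called), 1 higher and 4 lower in recovered against chilled fruit (50.4%), and 2 lower in recovered against unchilled fruit (9.15% lower). CRF6-like is in these counts and passed the filter through chilled fruit only. ERF118 (MELO3C011572.2) had 6.83, 7.99 and 6.66 scaled FPKM in recovered, 81, 55.3 and 60.5 in chilled and 16, 11.7 and 15 in unchilled fruit. It was higher in chilled against unchilled fruit (2.20 ± 0.17 SE, edgeR adjusted p = 2.35e-06) and lower in recovered against chilled fruit (-3.19 ± 0.18 SE, edgeR adjusted p = 2.85e-07). All recovered libraries lay below the unchilled ones, a difference of -0.99 ± 0.17 (SE, edgeR adjusted p = 0.00229) just under the fold threshold, which was passed without recovered replicate 2 (-1.08) or unchilled replicate 2 (-1.11). The other ERF118 gene (MELO3C012242.2) had 0.603, 0.507 and 0.443 scaled FPKM in recovered, 2.1, 2.87 and 2.55 in chilled and 2.15, 1.24 and 1.29 in unchilled fruit. It was lower in recovered fruit than in chilled (-2.27 ± 0.33 SE, edgeR adjusted p = 1.51e-04) and in unchilled fruit (-1.58 ± 0.33 SE, edgeR adjusted p = 0.00577). ERF118-like (MELO3C006333.2) had 6.64, 6.6 and 6.05 in recovered, 2.79, 2.89 and 3.05 in chilled and 6.57, 9.36 and 8.39 scaled FPKM in unchilled fruit, lower in chilled against unchilled fruit (-1.47 ± 0.23 SE, edgeR adjusted p = 2.59e-04) and higher in recovered against chilled fruit (1.14 ± 0.23 SE, edgeR adjusted p = 0.00133).

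ERF069-like (MELO3C019590.2) was highest in unchilled and lowest in recovered fruit. It had 5.24, 5.12 and 4.17 scaled FPKM in recovered, 10.7, 11.8 and 9.81 in chilled and 26, 23.5 and 34.3 in unchilled fruit. Its log2 fold change was -1.38 ± 0.17 (SE, edgeR adjusted p = 5.01e-05) in chilled and -2.53 ± 0.18 (SE, edgeR adjusted p = 5.52e-05) in recovered against unchilled fruit, and -1.15 ± 0.17 (SE, edgeR adjusted p = 2.05e-04) in recovered against chilled fruit, which was -0.65 and not called with library totals. CRF6-like (MELO3C011671.2), after an Arabidopsis stress-induced cytokinin response factor, had 6.86, 3.26 and 3.53 scaled FPKM in chilled fruit, against 0, 0.112 and 0 in unchilled fruit. These are 170 counts against 2, a ratio of 115 (95% counting interval 31.2 to 954). Its recovered libraries had 0, 0 and 0.0493 scaled FPKM. The fitted log2 fold change was 6.61 ± 0.76 (SE, edgeR adjusted p = 3.38e-05) in chilled against unchilled fruit, or 9.18 without unchilled replicate 2, and -7.47 ± 0.82 (SE, edgeR adjusted p = 2.27e-05) in recovered against chilled fruit, or -9.15 without recovered replicate 3.

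The branch of RAP2-3 (3 members, 2 tested) is known in Arabidopsis for sensing low oxygen through the stability of its proteins. RAP2-3-like (MELO3C021306.2) was abundant in every library, with 323, 252 and 339 scaled FPKM in recovered, 392, 410.1 and 376 in chilled and 146, 198 and 179.8 in unchilled fruit. It was called higher in chilled against unchilled fruit (1.17 ± 0.14 SE, edgeR adjusted p = 4.35e-05), and with library totals its value was 0.67 and under the fold threshold. The recovered libraries lay between the other groups without overlap and were not called against either. ERF071 (MELO3C002085.2), in Arabidopsis a hypoxia-induced gene of this branch, had 22.5, 17.8 and 20.2 scaled FPKM in recovered, 165, 148 and 141 in chilled and 54.6, 50.2 and 62.8 in unchilled fruit. It was higher in chilled than in unchilled fruit (1.44 ± 0.12 SE, edgeR adjusted p = 2.96e-06, or 0.94 with library totals). After the warm day it was lower than in chilled fruit (-2.91 ± 0.12 SE, edgeR adjusted p = 6.16e-08) and than in unchilled fruit (-1.47 ± 0.12 SE, edgeR adjusted p = 7.55e-05). The untested ERF071-like (MELO3C006149.2) had 0.736, 0.877 and 0.511 in recovered, 0, 0 and 0.0897 in chilled and 0.317, 0.655 and 1.06 scaled FPKM in unchilled fruit.

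The AP2-like branch (22 members, 7 tested) had 2 members higher and 2 lower in chilled against unchilled fruit (48.3% of all tested genes were called), and 2 higher and 3 lower in recovered against chilled fruit (50.4%). MELO3C009889.2 is in these counts and passed the filter through chilled fruit only. The branch's most abundant member, TOE3 (MELO3C007572.2, chromosome 8, 3765938 to 3769092), is a relative of AP2 that microRNA miR172 silences in Arabidopsis, where it delays flowering. TOE3 had 441, 394 and 449.9 scaled FPKM in recovered, 39.7, 40.9 and 39.9 in chilled and 202, 239 and 213 in unchilled fruit. The replicates were close to each other and no groups overlapped. Its log2 fold change was -2.44 ± 0.10 (SE, edgeR adjusted p = 5.03e-08) in chilled against unchilled and 3.42 ± 0.10 (SE, edgeR adjusted p = 1.86e-08) in recovered against chilled fruit. The recovered level exceeded the unchilled one by 0.97 ± 0.09 (SE, edgeR adjusted p = 1.55e-04) on the log2 scale, just under the fold threshold, and was called without recovered replicate 2 (1.03) or unchilled replicate 2 (1.05). With this it ranked 1 in the family in recovered fruit, rank 15 in chilled and rank 3 in unchilled fruit.

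SNZ (MELO3C022528.2), another miR172 target of the same kind in Arabidopsis, moved the opposite way to TOE3. It had 3.47, 3.31 and 3.5 scaled FPKM in recovered, 13.1, 12.6 and 12.9 in chilled and 4.38, 3.92 and 4.33 in unchilled fruit, higher in chilled against unchilled fruit (1.61 ± 0.12 SE, edgeR adjusted p = 1.76e-06) and lower in recovered against chilled fruit (-1.91 ± 0.12 SE, edgeR adjusted p = 5.69e-07). The other TOE3 gene, MELO3C020848.2, had 4.77, 3.67 and 4.85 in recovered, 3.94, 4.56 and 2.64 in chilled and 4.75, 5.95 and 6.14 scaled FPKM in unchilled fruit and was not called. MELO3C009889.2, an AP2-like gene without a further name, was at 9.05, 11.3 and 10.2 scaled FPKM in chilled fruit, against 0.779, 0.546 and 0.568 in unchilled fruit (4.01 ± 0.22 SE, edgeR adjusted p = 2.78e-07), and at 0.85, 0.803 and 0.738 in recovered fruit (-3.67 ± 0.21 SE, edgeR adjusted p = 3.46e-07 against chilled fruit). MELO3C009804.2 showed the reverse, with 18.5, 18.9 and 21.4 in recovered, 6.25, 4.43 and 3.87 in chilled and 16.7, 19.9 and 17.4 scaled FPKM in unchilled fruit. Its log2 fold changes were -1.89 ± 0.17 (SE, edgeR adjusted p = 7.10e-06) and, for recovered against chilled fruit, 2.02 ± 0.17 (SE, edgeR adjusted p = 4.27e-06).

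WRI1 (MELO3C012314.2), in Arabidopsis an activator of fatty acid synthesis in seeds, had 1.52, 1.16 and 0.571 scaled FPKM in recovered, 2.39, 4.54 and 4.52 in chilled and 1.39, 2.36 and 2 in unchilled fruit. It was lower in recovered than in chilled fruit (-1.82 ± 0.40 SE, edgeR adjusted p = 0.00213), while its value in chilled against unchilled fruit was 0.99 ± 0.38 (SE, edgeR adjusted p = 0.0384), under the fold threshold, and was called without chilled replicate 1 (1.24) or unchilled replicate 2 (1.17). The AP2-like gene MELO3C023484.2 had 11.9, 25.6 and 20.1 in recovered, 28.5, 18.5 and 19.1 in chilled and 82.1, 25.7 and 23.2 scaled FPKM in unchilled fruit. Leaving out 1 library gave it a call only without unchilled replicate 3, in chilled against unchilled fruit (-1.29). With all libraries that value was -0.99, and without unchilled replicate 1 it was -0.17. Of the RAV type, which joins an AP2 to a B3 domain, 1 of 3 members was tested. This gene (MELO3C029441.2) had 1.25, 1 and 0.585 scaled FPKM in recovered, 1.16, 3.83 and 3.05 in chilled and 0.415, 0.714 and 0.594 in unchilled fruit. It was higher in chilled against unchilled fruit (2.21 ± 0.49 SE, edgeR adjusted p = 0.00251). Its value in recovered against chilled fruit (-1.51 ± 0.47 SE, edgeR adjusted p = 0.0143) was not called without recovered replicate 3, without chilled replicate 2 (adjusted p 0.052 to 0.0613) or with library totals (-1.02).

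Of the WIN1 and SHINE branch, whose Arabidopsis genes promote wax and cutin synthesis, 2 of 9 members were tested. WIN1-like (MELO3C010341.2) had 0.053, 0 and 0.138 scaled FPKM in recovered and 0.08, 0.0782 and 0.259 in chilled fruit, against 6.91, 1.62 and 2.51 in unchilled fruit. Every stored library was below every unchilled one. In the fit this gave -4.59 ± 0.81 (SE, edgeR adjusted p = 5.89e-04) on the log2 scale in chilled against unchilled fruit, -3.78 without unchilled replicate 1 and -5.42 without chilled replicate 3. For recovered against unchilled fruit it was -5.64 ± 0.85 (SE, edgeR adjusted p = 0.0012), -4.83 without unchilled replicate 1 and -6.76 without recovered replicate 3. SHINE 2-like (MELO3C003695.2) was at 18.5, 16.8 and 16.5 in recovered, 9.26, 17.9 and 11.6 in chilled and 11.5, 17.5 and 17.7 scaled FPKM in unchilled fruit, where all groups overlapped and no comparison was called.

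Genes listed as markers of the fruit surface, and those of other tissues, were measured beside the family. Over 30 genes of wax and cutin synthesis, 2 of them at 0 in every library, the summed level was 529 to 1217 scaled FPKM in recovered, 426 to 863 in chilled and 1164 to 3823 in unchilled libraries. Of the 19 tested, 9 were lower in recovered against unchilled fruit, where 9.15% of all tested genes were. In chilled against unchilled fruit 8 were lower (26.2%), and 0 were higher in either comparison. In recovered against chilled fruit 4 were higher (25.1%) and 5 lower (25.3%). Green tissue genes (92, of which 23 were at 0 everywhere) summed to 9548 to 13011 in recovered, 9398 to 10975 in chilled and 22706 to 32178 scaled FPKM in unchilled libraries. For phloem genes (18, with 3 at 0) the sums were 79.7 to 109 in recovered, 234 to 315 in chilled and 299 to 551 in unchilled libraries, and for seed genes (21, with 4 at 0) 42.4 to 52.1 in recovered, 142 to 175 in chilled and 88.8 to 105 in unchilled libraries. In each list but that of the fruit surface every recovered library lay below every unchilled one, and the surface ranges overlapped. Chilled libraries all lay below unchilled ones for green tissue and surface genes, overlapped them for phloem genes and lay above them for seed genes. In chilled against unchilled fruit 7 green tissue genes were higher and 22 lower of 58 tested (48.3% of all tested genes were called). In recovered against unchilled fruit 0 were higher and 15 lower (12.8%). Members called lower were 23 (26.2%) and 15 (9.15%) in these comparisons. The part of tissue make-up in the members' differences was not tested.

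Of the LEP and ESR branch (5 members), LEP (MELO3C005088.2) was the only member tested. LEP shapes leaf stalks in Arabidopsis. It had 51.6, 55 and 47 scaled FPKM in recovered, 55, 114 and 103 in chilled and 5.83, 24 and 23.3 in unchilled fruit. Unchilled replicate 1 was far below the other unchilled libraries. The gene was higher in chilled (2.35 ± 0.48 SE, edgeR adjusted p = 0.00188) and in recovered fruit (1.53 ± 0.47 SE, edgeR adjusted p = 0.0338) than in unchilled fruit, and the call of recovered fruit was lost when any recovered library was left out or without unchilled replicate 3 (adjusted p 0.0509 to 0.0775).

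Genes without a branch (18 members, 8 tested) included the family's most abundant transcript, MELO3C024315.2, described only as an ethylene-responsive transcription factor. It had 270.2, 276 and 281 scaled FPKM in recovered, 461, 469 and 489 in chilled and 264, 245 and 240.0 in unchilled fruit. The chilled libraries lay above all others and the replicates were close, yet the log2 fold changes of 0.92 ± 0.08 (SE, edgeR adjusted p = 4.30e-06) for chilled against unchilled and -0.78 ± 0.08 (SE, edgeR adjusted p = 1.21e-05) for recovered against chilled fruit were under the fold threshold. MELO3C017940.2, with the same description, had 304, 239 and 248 scaled FPKM in recovered, 204, 132 and 114 in chilled and 174, 145 and 141 in unchilled fruit. Its value in recovered against chilled fruit, 0.82 ± 0.21 (SE, edgeR adjusted p = 0.00539), was under the fold threshold with TMM. Among the fits with 1 library left out it was called only in that without chilled replicate 1 (1.10). MELO3C010840.2 rose to 44.8, 60.6 and 52.8 scaled FPKM in chilled fruit, against 3.01, 4.23 and 4.06 in unchilled fruit (3.80 ± 0.17 SE, edgeR adjusted p = 9.01e-08), and had 6.32, 7.11 and 6.74 in recovered fruit (-2.97 ± 0.16 SE, edgeR adjusted p = 2.36e-07 against chilled fruit). RAP2-11 (MELO3C014722.2), in Arabidopsis a regulator of the response to low potassium, had 0.746, 0.247 and 0.432 scaled FPKM in recovered, 3.88, 5.13 and 3.94 in chilled and 0.536, 1.07 and 0.511 in unchilled fruit. It was higher in chilled against unchilled (2.59 ± 0.42 SE, edgeR adjusted p = 3.42e-04) and lower in recovered against chilled fruit (-3.16 ± 0.44 SE, edgeR adjusted p = 1.13e-04).

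**Figure D5:**
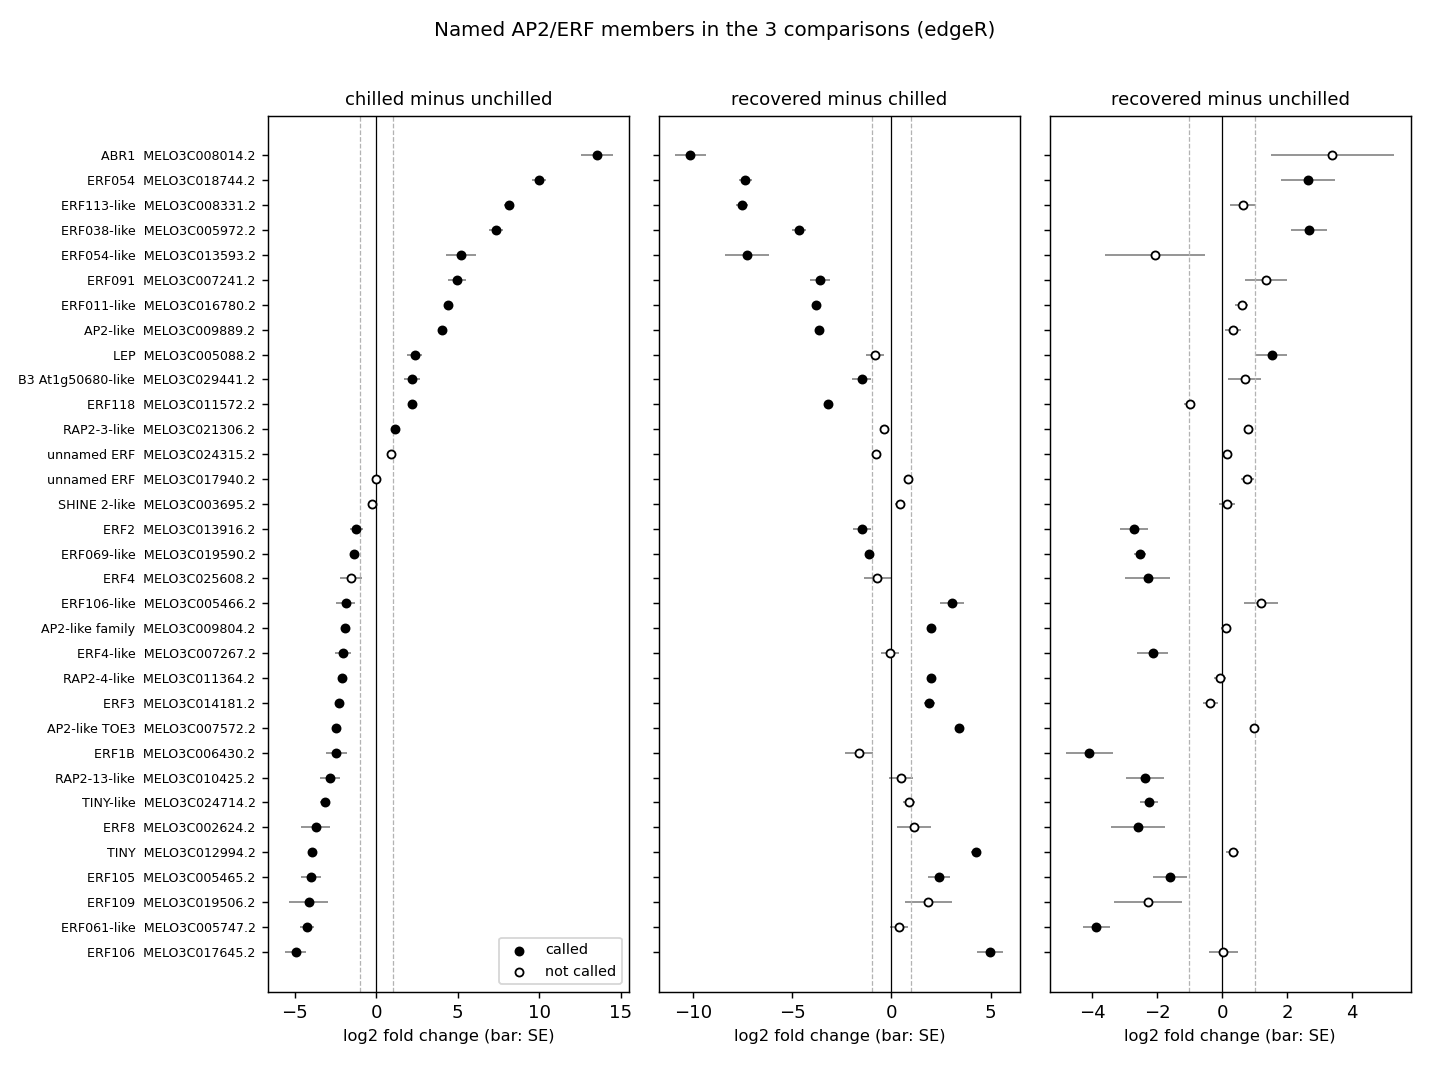
Log2 fold changes of 33 named members (points) with their standard errors (bars) in the 3 comparisons, filled where called and open where not, with dashed lines at the fold threshold of 1. ABR1 has the highest value in the left panel (13.54) and the lowest in the middle panel (-10.15), and ERF061-like lies near -4 in the left and right panels and near 0 in the middle panel.

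Other tested members without a branch are known by domain or similarity only. MELO3C022694.2 had 42.5, 37.5 and 38.4 scaled FPKM in recovered, 65.4, 55.3 and 55.1 in chilled and 43.1, 43.6 and 38.9 in unchilled fruit and was not called. MELO3C012217.2 had 30.9, 31 and 34.4 in recovered, 21.6, 26.1 and 24.2 in chilled and 11.1, 21.4 and 19.9 scaled FPKM in unchilled fruit. Of the fits with 1 library left out, only that without unchilled replicate 2 called it, in recovered against unchilled fruit (1.04). The gene like Arabidopsis At4g13040 (MELO3C028860.2) had 2.22, 3.38 and 3.23 in recovered, 0.611, 0.894 and 0.888 in chilled and 3.44, 1.2 and 2.74 scaled FPKM in unchilled fruit, lower in chilled against unchilled fruit (-1.61 ± 0.42 SE, edgeR adjusted p = 0.00577) and higher in recovered against chilled fruit (1.87 ± 0.41 SE, edgeR adjusted p = 0.00228). On the DREB side, ERF021 (MELO3C022181.2) and ERF027 (MELO3C005630.2) were not called with all libraries. ERF021 had 14.6, 8.36 and 12.5 in recovered, 6.97, 15.1 and 12.3 in chilled and 9.78, 26.3 and 20.1 scaled FPKM in unchilled fruit. Leaving out 1 library gave it a call only without unchilled replicate 1, in chilled against unchilled fruit (-1.03). ERF027 had 2.59, 0.139 and 0.121 scaled FPKM in recovered, 2.85, 1.34 and 0.597 in chilled and 3.77, 2.28 and 2.66 in unchilled fruit, and recovered replicate 1 stood apart from its group. Without that library ERF027 was lower in recovered than in chilled (-3.50) and than in unchilled fruit (-4.38). Without chilled replicate 1 the value of recovered against chilled fruit was -0.03, against -0.74 with all libraries, and that of chilled against unchilled fruit was -1.60, against -0.88.

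Members were spread over the 12 chromosomes and 3 unplaced positions, from 3 on chromosome 12 to 20 on chromosome 6, and 25 of them lay within 50 kb of another member in 12 clusters. Coordinates are those of the deposited table. ERF091 (MELO3C007241.2, chromosome 8, 1671778 to 1672868) overlaps a putative factor, MELO3C007242.2 (chromosome 8, 1672832 to 1673509). Their reads may be shared, since the strand setting of the counts was not given in the sources used here. MELO3C007242.2 had 208, 83.2 and 75 scaled FPKM in chilled fruit, against 20.8, 17 and 23.8 in unchilled fruit (log2 fold change 2.57 ± 0.39 SE, edgeR adjusted p = 2.98e-04, 1.95 without chilled replicate 1), and 16, 15.6 and 12.6 in recovered fruit (-3.05 ± 0.39 SE, edgeR adjusted p = 1.11e-04 against chilled fruit, -2.42 without chilled replicate 1). Both genes of this overlap were higher in the cold.

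Neighbours did not always move together. TOE3 (MELO3C007572.2) and ERF011 (MELO3C007573.2, chromosome 8, 3784037 to 3785148) lie next to each other, and in chilled against unchilled fruit TOE3 fell by 2.44 on the log2 scale while ERF011 rose by 1.91. The other TOE3 gene (MELO3C020848.2, chromosome 11, 3599739 to 3603731) also has a DREB-side neighbour, ERF008 (MELO3C020847.2), which was not tested and had 0.328, 0.163 and 0.214 scaled FPKM in recovered, 1.61, 0.726 and 2.5 in chilled and 0.266, 1.46 and 0.591 in unchilled fruit. In the pair of ERF105 (chromosome 9, 21794131 to 21795254) and ERF106-like (chromosome 9, 21799192 to 21799988), both genes were lower in chilled against unchilled fruit and higher in recovered than in chilled fruit. In the cluster of ERF1B (chromosome 6, 3193350 to 3194369) with ERF098-like (MELO3C006431.2) and ERF096 (MELO3C006432.2), ERF1B was the only gene tested.

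In the deposited table the length of a gene model equals its span on the chromosome where the model has no intron. This held for 84 of the 136 members (61.8%) and for 8400 of all 29980 genes (28%). It held for 16 of 16 members of the ERF1 and ERF5 branch, 31 of 34 on the DREB side, 6 of 7 of the ERF3 and ERF4 branch and 5 of 5 of the LEP branch, but for 0 of 22 AP2-like members and 0 of 9 of the WIN1 and SHINE branch. Promoter and protein sequences of the members were not analysed here.

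Of the 78 members that were not tested, 60 had some count. A group mean above 1 FPKM was reached by 8 of these. CRF4-like (MELO3C006973.2), of the cytokinin response factors, had 0, 0 and 0.0475 scaled FPKM in recovered, 2.31, 2.26 and 1.94 in chilled and 0.649, 0.541 and 1.29 in unchilled fruit, which rests on 1 count in recovered, 85 in chilled and 44 in unchilled libraries. Chilled fruit were 124 times above recovered fruit (95% counting interval 21.7 to 4965). An untested gene also described as ERF027 (MELO3C006870.2) had 0, 0 and 0 scaled FPKM in chilled fruit, against 1.56, 1.49 and 0.745 in unchilled fruit. Unchilled fruit were at least 16.3-fold higher, taking a floor of 3 counts over the group. ERF109-like (MELO3C018447.2) had 1.01, 0.333 and 0 scaled FPKM in recovered, 0, 0 and 0 in chilled and 3.44, 0.995 and 1.55 in unchilled fruit, where unchilled fruit were at least 8.41-fold above chilled fruit against the same floor.

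ERF017-like (MELO3C015543.2) had 1.06, 0.105 and 0.184 scaled FPKM in recovered, 0, 0 and 0.0645 in chilled and 2.05, 1.1497 and 0.489 in unchilled fruit, with unchilled fruit 49.7 times above chilled fruit (95% counting interval 8.62 to 1993). An ERF1B-like gene (MELO3C022985.2) had 0.0885, 0 and 0.0768 in recovered, 3.01, 0.457 and 0.432 in chilled and 1.1, 1.01 and 2.18 scaled FPKM in unchilled fruit, and chilled replicate 1 was again the highest of its group. An ERF1A-like gene (MELO3C005502.2) was at 0, 0 and 0 in recovered and 0.0896, 0 and 0 in chilled fruit, against 1.41, 0.411 and 0.671 scaled FPKM in unchilled fruit, where unchilled fruit were 29.7 times above chilled fruit (95% counting interval 5.03 to 1201) and at least 14.5-fold above recovered fruit against the floor.

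The spread between replicates was also read off for the family. The median coefficient of variation was 21.5% in recovered, 24.2% in chilled and 25.9% in unchilled fruit over the tested members, and 11%, 13.7% and 11.4% over all tested genes. Replicate 1 was the highest library of its group in 31 of 58 members in recovered fruit (32.8% of all tested genes), in 27 in chilled fruit (37.4%) and in 32 in unchilled fruit (37.9%). In the ERF1 and ERF5 branch it was the highest in 6, 7 and 6 of 8 members. These counts were made after the levels had been seen, and no test was run on them. Whether replicate numbers pair the libraries of different groups was not tested over the members.

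The summed level of the 136 members was 2409, 1974 and 2064 scaled FPKM in recovered, 3342, 2613 and 2401 in chilled, and 2661, 2229 and 2117 in unchilled libraries, so that every pair of groups overlapped. The 6 members with the highest mean level over all libraries were MELO3C024315.2, RAP2-3-like, TOE3, MELO3C017940.2, ABR1 and RAP2-4-like. The order differed between libraries. In each recovered library TOE3 was the highest member, in chilled replicate 1 ABR1, and in the other 5 libraries MELO3C024315.2.

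Genes of ethylene synthesis, perception and signalling were read in the same way. Of 54 such genes, 34 were tested. In ethylene synthesis (18 tested) 4 were higher and 8 lower in chilled against unchilled fruit, 9 higher and 6 lower in recovered against chilled fruit, and 2 higher and 3 lower in recovered against unchilled fruit. In perception and signalling (16 tested) 4 were higher and 4 lower in chilled against unchilled fruit, 3 higher and 5 lower in recovered against chilled fruit, and 2 higher and 1 lower in recovered against unchilled fruit. Of all tested genes 48.3%, 50.4% and 12.8% were called in these comparisons, and the calls in perception and signalling lie near those shares in both comparisons with chilled fruit. CmACS1 (MELO3C021182.2), which makes the ethylene precursor, had 24.8, 22.9 and 18 scaled FPKM in recovered, 499, 397 and 262 in chilled and 7.18, 17.6 and 15.9 in unchilled fruit, and was higher in chilled against unchilled (4.83 ± 0.39 SE, edgeR adjusted p = 6.33e-06) and lower in recovered against chilled fruit (-4.14 ± 0.38 SE, edgeR adjusted p = 1.22e-05). CmACO1 (MELO3C014437.2), which turns the precursor into ethylene, had 1332, 2421 and 633 scaled FPKM in recovered, 466, 593 and 575 in chilled and 1058, 1245 and 1423 in unchilled fruit. It was lower in chilled against unchilled fruit (-1.19 ± 0.40 SE, edgeR adjusted p = 0.0249), a call lost when any chilled library was left out and without unchilled replicate 2 or 3 (adjusted p 0.0506 to 0.076). It was higher in recovered against chilled fruit (1.42 ± 0.41 SE, edgeR adjusted p = 0.011), or 0.85 and under the fold threshold without recovered replicate 2.

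Other genes of ethylene synthesis moved further. An ACC synthase (MELO3C007662.2), with the highest log2 fold change of these lists in chilled against unchilled fruit, had 0.116, 0 and 0.126 scaled FPKM in recovered, 14.5, 6.95 and 5.28 in chilled and 0.094, 0.144 and 0.15 in unchilled fruit. On the log2 scale this gene changed by 6.06 ± 0.60 (SE, edgeR adjusted p = 1.38e-05) in chilled against unchilled and -6.68 ± 0.63 (SE, edgeR adjusted p = 9.06e-06) in recovered against chilled fruit. Another ACC synthase (MELO3C016340.2) had 0.574, 0.0992 and 0.108 in recovered, 3.88, 1.18 and 0.396 in chilled and 5.11, 1.51 and 4.34 scaled FPKM in unchilled fruit, and the low recovered level (-3.81 ± 0.97 SE, edgeR adjusted p = 0.0164 against unchilled fruit) was not called without recovered replicate 2 or 3 (adjusted p 0.0554 to 0.0582), and was -5.09 without recovered replicate 1. An ACC oxidase 1 gene (MELO3C004619.2) rose to 3.64, 15.2 and 8.29 scaled FPKM in recovered fruit, against 0.0901, 0.176 and 0 in chilled and 0.129, 0.177 and 0.552 in unchilled fruit, 6.63 ± 0.88 (SE, edgeR adjusted p = 9.11e-05) against chilled and 4.94 ± 0.71 (SE, edgeR adjusted p = 9.89e-04) against unchilled fruit on the log2 scale. Chilled fruit held only 3 counts of it, and recovered fruit were 109 times higher (95% counting interval 37 to 529). The fitted value against chilled fruit was 6.03 without recovered replicate 2, 7.55 without chilled replicate 2 and 6.0 without chilled replicate 3. Against unchilled fruit it was 4.34 without recovered replicate 2 and 5.8 without unchilled replicate 3. An ACC oxidase 2 gene (MELO3C035771.2) had 1.45, 5.65 and 2.56 scaled FPKM in recovered, 0.0627, 0.0612 and 0 in chilled and 1.12, 0.657 and 0.811 in unchilled fruit, and changed by -4.29 ± 0.92 (SE, edgeR adjusted p = 0.00203) on the log2 scale in chilled against unchilled fruit, or -3.68 without chilled replicate 3. This rests on 2 counts in chilled and 60 in unchilled fruit, with unchilled fruit 22.3 times higher (95% counting interval 5.9 to 188).

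The dehydration-responsive factors left out by the rule (5 genes, 2 tested) are close relatives of the DREB-side members. DREB2C (MELO3C008318.2) was higher in chilled fruit with 76.3, 73 and 67.7 scaled FPKM, against 12, 12.8 and 9.55 in unchilled fruit (2.66 ± 0.14 SE, edgeR adjusted p = 1.84e-07), and had 13.6, 16.8 and 13.3 in recovered fruit (-2.31 ± 0.13 SE, edgeR adjusted p = 3.39e-07 against chilled fruit). DREB1D-like (MELO3C005367.2) had 3.02, 0.883 and 0.0772 in recovered, 2.68, 0.655 and 0.542 in chilled and 8.81, 9.4 and 12.5 scaled FPKM in unchilled fruit, lower in chilled (-3.01 ± 0.87 SE, edgeR adjusted p = 0.0115) and in recovered fruit (-2.96 ± 0.83 SE, edgeR adjusted p = 0.0234) than in unchilled fruit.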

How the data were processed

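Total RNA of melon 'HT' fruit was sequenced in 9 libraries, 3 in each group. The authors deposited a table of gene counts and FPKM for 29980 genes. Per the submitters' processing notes, cutadapt 1.15 and HISAT2 2.0.5 were used, and the study's methods name HTSeq for counting on the DHL92 melon genome. The strand setting of the counting was not given in the sources used here, so overlapping genes can share reads. The deposited FPKM values are counts scaled by gene length and library total, and recomputing them from the deposited counts gave a largest difference of 4.5e-11. Value columns matched to no sample numbered 0.

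The members, branches and gene lists were chosen with earlier results of these data known. Branches follow the names in the descriptions. Genes with a mean FPKM above 1 (15022 genes) were tested by edgeR 4.0.16 in R 4.3.3, with TMM scaling, 1 quasi-likelihood fit over all 9 libraries and Benjamini-Hochberg adjustment over all tested genes. The calling thresholds were a log2 fold change of 1 and an adjusted p of 0.05. The SE is the log2 fold change divided by the root of its F value. The steps were tested on simulated data. Nothing says that the replicates came from separate plants, so p-values measure only the spread between these samples. Counting intervals (95%, exact) and the floor of 3 counts cover counting error only.

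Members were named by a rule: ABR1, ERF106, ERF061-like and ERF3, in each comparison the 8 highest and 8 lowest called members without overlap and with at least 5 scaled FPKM in the higher group, the 6 highest mean levels, the highest tested member of each branch, CmACO1, CmACS1 and the highest and lowest called ethylene genes. All other named genes were picked with their values in view. The alternatives tried were DESeq2 1.42.0 with its Wald test, its size factors in edgeR, library totals, filterByExpr, no filter, a replicate block, a fit of the compared groups only, an adjusted p of 0.01, no fold threshold and each library left out. Restricting to genes above 1 FPKM in every group was added after seeing the data.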

Additional observations from a re-analysis of the deposited data

How the results depend on the processing

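Of 95 calls of a member in a comparison, 75 held under each of 18 other settings, 81 held with each library left out, and 0 changed sign. The counts of members in chilled against unchilled and recovered against chilled fruit stayed within 1.5 times, except that 36 members were lower in chilled fruit with no filter (23 with it). Library totals gave 29 members lower in chilled against unchilled fruit (23 with TMM) and 16 higher in recovered against chilled fruit (12 with TMM). Some members not called with TMM were thus called there. The library-total values given for single members are no full list of calls lost or gained. With only genes above 1 FPKM in every group, a setting chosen after seeing the data, 10 members were higher in chilled fruit (20 otherwise) and 10 lower in recovered against chilled fruit (21 otherwise). With each library left out, 20 to 21 members were higher and 20 to 25 lower in chilled against unchilled fruit, and 12 to 14 higher and 20 to 22 lower in recovered against chilled fruit.

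The counts of recovered against unchilled fruit were the least stable. Of members, 4 were higher, and this became 7 with DESeq2, 2 with only the compared groups in the fit, 1 with an adjusted p of 0.01, 14 with no fold threshold, 1 with genes above 1 FPKM in every group and 1 to 5 with each library left out. The 15 lower members became 23 with filterByExpr, 9 with an adjusted p of 0.01 and 11 to 18 with each library left out. Ethylene genes higher there (4) became 2 with only the compared groups, 2 with an adjusted p of 0.01 and 1 to 4 with each library left out, and those lower (4) became 2 with an adjusted p of 0.01. In chilled against unchilled fruit 13 ethylene genes were higher with no fold threshold (8 with it), and in recovered against chilled fruit 7 were lower with library totals (11 with TMM). Apart from the fewer genes or looser and stricter thresholds themselves, the cause was not tested.

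Over all tested genes, same-numbered libraries deviated from their group means with correlations of -0.16 to 0.19, and differently numbered ones with -0.20 to 0.13. The numbers showed no clear pairing there, and pairing over the members alone was not tested. A replicate block gave 20 members higher and 25 lower in chilled against unchilled, 12 and 21 in recovered against chilled, and 2 and 16 in recovered against unchilled fruit.

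With 3 libraries a group and replicate 1 often apart, members near the fold threshold depend on single libraries. Members with under 1 FPKM were not tested. Fitted fold changes of genes with 0 to 3 counts in a group are no bounds.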
